A study of Mus musculus with 8 samples.

Results

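Transcripts of 10 genes that build and load MHC class I molecules were followed in epididymal white fat of obese mice. They are the heavy chain genes H2-K1 and H2-D1, the light chain gene B2m, the peptide transporter genes Tap1 and Tap2, the loading factor gene Tapbp, the inducible proteasome subunit genes Psmb8, Psmb9 and Psmb10, and the regulator gene Nlrc5. The genes were chosen by name, with earlier results of these data known. All were found in every library, and they are 10 of 55487 gene identifiers and 10 of the 14172 genes tested. None of the 10 passed the test of a difference between genotypes, and for each the interval of the difference stayed within 0.46 on the log2 scale in both directions.

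The mice were obese C57BL/6 males, made obese by a high-fat diet. The 4 WT mice (numbers 2, 3, 4 and 5) carried floxed Slc16a1 alleles (flox/flox) without Cre. The 4 AKO mice (numbers 3, 8, 9 and 11) carried the same floxed alleles with AP2-Cre, and their genotype is labelled Slc16a1 -/-. Slc16a1 encodes MCT1, a carrier of lactate, pyruvate and ketone bodies. AP2-Cre takes its promoter from the fat cell gene Fabp4, which macrophages and endothelial cells can also use, so the label does not describe a deletion in every cell of the pad. Cre and the deletion go together in this design, while age and length of the diet are not stated in the labels.

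Values are TPM, a relative abundance scaled to 1000000 per library and corrected for transcript length, so that levels of different genes can be set side by side. The authors' tables have 1 row per transcript, and the level of a gene is the sum of its rows. Differences subtract the WT mean from the AKO mean of log2(TPM + 1), and come with the standard error (SE), the 95% interval and the false discovery rate (FDR) from limma over all 14172 genes. A gene was called at an FDR below 0.05. Read depth is not kept in TPM. Between 13968 and 14884 genes per library reached 1 TPM, and rows above 0 numbered 63143 to 66466 in WT and 66578 to 70720 in AKO. The summed level of Slc16a1 was 15.7 to 28.5 TPM in WT and 21.5 to 27.1 TPM in AKO, so the gene total does not check the labels. WT and AKO therefore mean the libraries labelled so throughout, and errors written with ± are SD over 4 mice. All 10 fat cell markers reached the level for testing, while no epididymal epithelium marker of 7 did. In a whole fat pad, fewer cells of a type and less RNA per cell cannot be told apart.

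MHC class I molecules show short peptides from inside the cell to CD8 T cells. Proteasomes cut the peptides, the TAP transporter carries them into the endoplasmic reticulum, and tapasin (Tapbp) holds the empty heavy chain and its light chain, beta-2 microglobulin, next to TAP until a peptide fits. Interferon gamma exchanges the catalytic proteasome subunits for the inducible ones encoded by Psmb8, Psmb9 and Psmb10, and NLRC5 activates class I promoters together with factors bound at the X and Y boxes. In obese fat, fat cells, vessel cells and immune cells can all carry class I molecules.

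The promoters of the heavy chain genes and of the Tap1-Psmb9 pair are shown because class I promoters are known to be controlled through X and Y boxes, and these stretches hold letters of those boxes. Sequences are from RefSeq on GRCm38.p6 and stand 5′ to 3′. Those of the heavy chains are the 250 bases before the first listed start, chr17:34000348-34000597 on the minus strand for H2-K1 and chr17:35262844-35263093 on the plus strand for H2-D1. Tap1 and Psmb9 are transcribed away from each other, and the 225 bases between their starts, chr17:34187331-34187555, are printed on the plus strand, that of Tap1. Capitals mark CCAAT, the core letters of the Y box, and TGACG, those of the X2 box, each read on either strand.
H2-K1: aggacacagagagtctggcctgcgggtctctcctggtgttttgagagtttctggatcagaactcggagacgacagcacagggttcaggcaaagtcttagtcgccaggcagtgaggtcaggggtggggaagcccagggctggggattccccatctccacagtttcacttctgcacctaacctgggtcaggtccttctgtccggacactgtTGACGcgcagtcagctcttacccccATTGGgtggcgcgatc
H2-D1: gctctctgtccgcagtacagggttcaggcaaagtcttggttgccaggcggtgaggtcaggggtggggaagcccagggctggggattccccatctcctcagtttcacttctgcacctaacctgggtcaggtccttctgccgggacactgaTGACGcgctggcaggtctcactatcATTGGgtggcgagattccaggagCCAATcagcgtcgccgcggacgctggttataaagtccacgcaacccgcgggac
Tap1-Psmb9: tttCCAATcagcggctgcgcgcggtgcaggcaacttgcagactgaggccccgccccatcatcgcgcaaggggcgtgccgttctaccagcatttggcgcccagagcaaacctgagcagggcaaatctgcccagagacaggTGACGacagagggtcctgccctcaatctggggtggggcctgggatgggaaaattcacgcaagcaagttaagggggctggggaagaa
In both heavy chain promoters the first base of TGACG lay 25 bases before that of ATTGG, the reverse complement of CCAAT. In H2-K1 these began 41 and 16 bases before the start, and in H2-D1 they began 101 and 76 bases before it. A second CCAAT of H2-D1, 53 bases before the start, lay outside this arrangement. The printed stretch of H2-K1 ended before the matching position, which was therefore not searched in H2-K1. The stretch of Tap1 and Psmb9 did not have the arrangement of the heavy chains, with CCAAT 222 bases and TGACG 86 bases before the start of Tap1. In a local alignment, the best-matching part of the stretches of H2-K1 and H2-D1 covered 177 positions without a gap, of which 161 (91%) were identical. The bases outside this part are not in that percent. In the RefSeq promoter table used here 8 of the 10 genes were matched, Tap2 and Nlrc5 were not, and 2 starts were listed for H2-K1. In the 250 bases before the start, CCAAT was found in 6 of the 8 (B2m, H2-D1, H2-K1, Psmb9, Tap1 and Tapbp) and in 34.5% of 27025 RefSeq promoters. TGACG was found in 5 of the 8 (B2m, H2-D1, H2-K1, Psmb9 and Tap1) and in 17.9% of all. The 225 bases between Tap1 and Psmb9 lie in the windows of both, so a match there counts for each gene. With the likeness of H2-K1 and H2-D1, the 8 are not separate observations. The gamma-activated site TTCNNNGAA, which reads the same on both strands, was found before Psmb8 alone and in 7.18% of all. None of the marked boxes overlaps another in the printed stretches. These matches describe letters in a window and are no measure of binding.

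The light chain and the heavy chains were by far the most abundant of the 10. B2m, whose protein is shared by all class I heavy chains, had 5812, 4866, 5488 and 4446 TPM in WT mice 2, 3, 4 and 5 and 4936, 5683, 5134 and 5392 TPM in AKO mice 3, 8, 9 and 11. The groups overlapped fully, with the AKO mice inside the WT range. The mean in WT was 5153 ± 613 TPM and the mean in AKO 5286 ± 324 TPM (SD, n = 4 each), which gives 0.04 as the log2 difference (SE 0.12, interval -0.24 to 0.33, FDR = 0.947). B2m lay above 99.9% of the genes tested in mean TPM.

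H2-K1 encodes the K heavy chain, 1 of the classical peptide-presenting class I molecules. It had 2004, 2031, 1749 and 2145 TPM in WT and 2046, 2132, 2502 and 2117 TPM in AKO. AKO mouse 9 was the highest and WT mouse 4 the lowest, and the other mice lay close together. The log2 difference was 0.15 (SE 0.11, interval -0.10 to 0.39, FDR = 0.831), from 1982 ± 167 TPM in WT to 2199 ± 205 TPM in AKO. H2-D1, the D heavy chain, had 2152, 1887, 1708 and 1660.4 TPM in WT and 2024, 2186, 2314 and 1972 TPM in AKO. All 4 AKO mice were above the WT mean, and WT mouse 2 lay among them. Its log2 difference was 0.20 (SE 0.11, interval -0.05 to 0.46, FDR = 0.831), the largest of the 10, from 1852 ± 223 to 2124 ± 156 TPM.

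Read sharing limits how well the heavy chains can be told apart. Of all stretches of 50 bases in the longest coding transcript of GENCODE M21, 8.79% for H2-K1 and 14.3% for H2-D1 occurred unchanged in another gene, and 0% did for B2m. H2-K1 and H2-D1 summed to 3457 to 4156 TPM in WT and 4070.0 to 4816 TPM in AKO. B2m stood at 1.17 to 1.59 TPM per TPM of the 2 heavy chains in WT and at 1.07 to 1.32 in AKO, again with overlap. H2-K1 exceeded H2-D1 in 6 of the 8 mice, and their ranges overlapped, so the order of these 2 levels is not set beyond their spread.

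**Figure D1:**
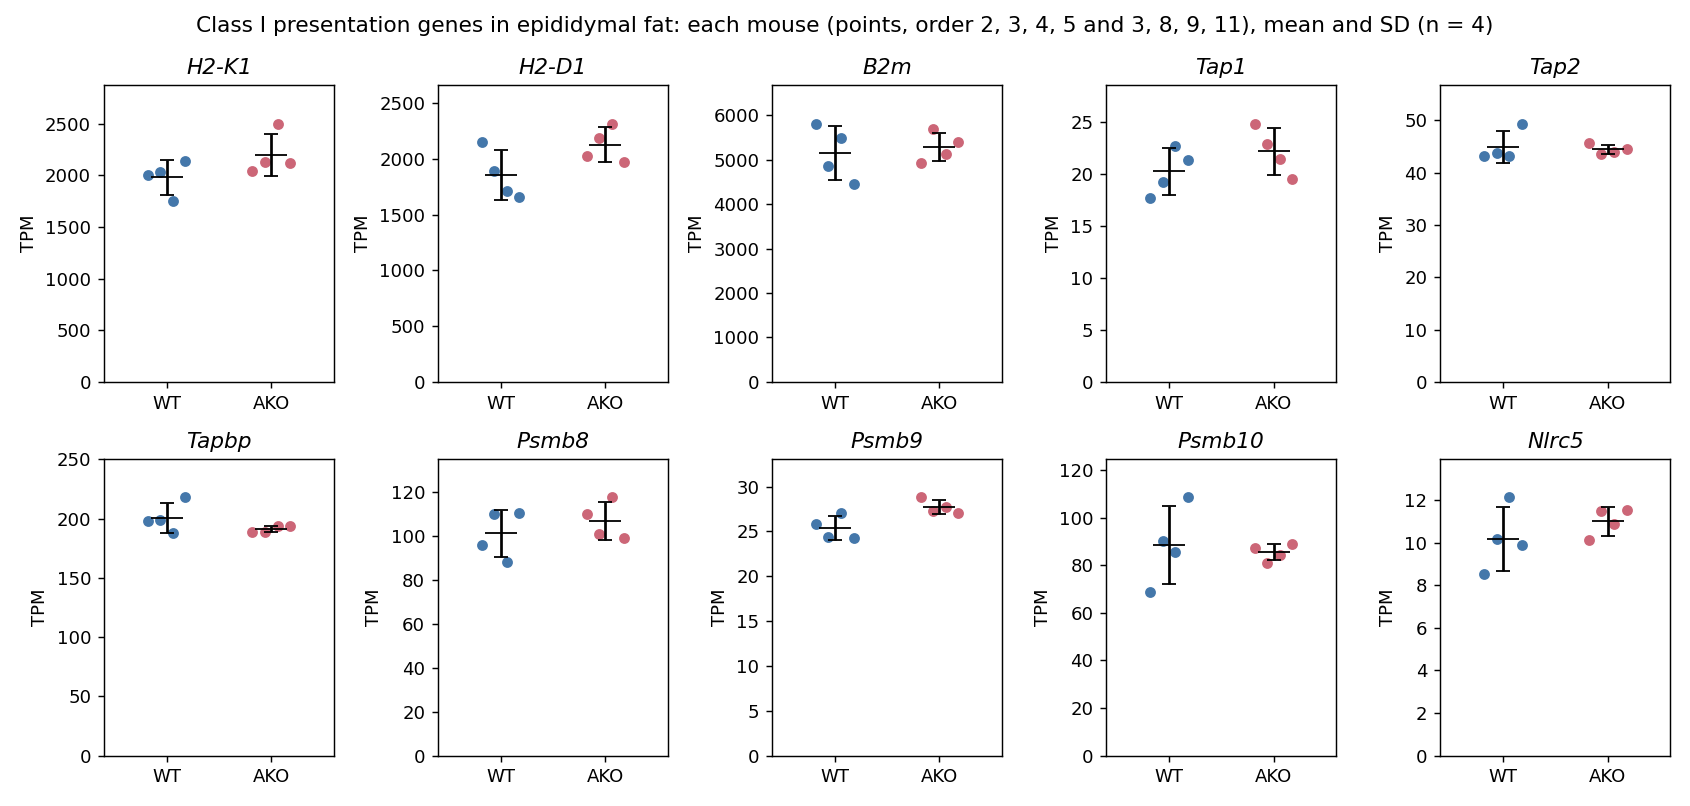
TPM of the 10 genes (vertical axes from 0, a scale of its own for each gene) in WT and AKO, with 1 point per mouse, the mean as a line and the SD as a bar (n = 4). The points of both groups overlap in every panel, by least for Psmb9, where the lowest AKO mouse has 27.06 TPM and the highest WT mouse 27.08 TPM.

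The transporter and loading genes did not pass the test. Tap1 encodes one half-transporter of TAP and had 17.7, 19.3, 22.8 and 21.4 TPM in WT and 24.9, 22.9, 21.5 and 19.6 TPM in AKO. AKO mice 3 and 8 were the highest and WT mouse 2 the lowest. The means were 20.3 ± 2.25 and 22.2 ± 2.24 TPM, a log2 difference of 0.13 (SE 0.11, interval -0.11 to 0.37, FDR = 0.844). Tap2, the partner half-transporter, had 43.1, 43.8, 43.2 and 49.35 TPM in WT and 45.7, 43.6, 44.0 and 44.6 TPM in AKO. WT mouse 5 stood above the other 7 mice, which differed by less than 3 TPM. The log2 difference was -0.01 (SE 0.07, interval -0.17 to 0.15, FDR = 0.979). Tap2 was 1.90 to 2.44 times Tap1 in WT and 1.84 to 2.28 times in AKO, higher in all 8 mice. Tapbp had 198.0, 198.7, 187.9 and 217.8 TPM in WT and 188.8, 189.0, 193.7 and 193.5 TPM in AKO. Every AKO mouse was below the WT mean, yet WT mouse 4 was the lowest of all. The log2 difference was -0.07 (SE 0.07, interval -0.22 to 0.09, FDR = 0.864).

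The inducible proteasome subunits did not pass the test either. Psmb8, the inducible form of the chymotrypsin-like subunit, had 95.8, 109.7, 88.1 and 110.4 TPM in WT and 109.9, 100.8, 117.4 and 98.95 TPM in AKO. High and low mice occurred in both groups, and the log2 difference was 0.08 (SE 0.10, interval -0.14 to 0.30, FDR = 0.882). Psmb9, which replaces the caspase-like subunit, had 25.9, 24.4, 27.08 and 24.3 TPM in WT and 28.8, 27.3, 27.8 and 27.06 TPM in AKO. AKO mice 3, 8 and 9 were above every WT mouse, and AKO mouse 11 lay just under WT mouse 4. The means were 25.4 ± 1.34 and 27.7 ± 0.780 TPM, a log2 difference of 0.12 (SE 0.07, interval -0.03 to 0.28, FDR = 0.831). Psmb10, which replaces the trypsin-like subunit, had 68.7, 90.4, 85.7 and 108.5 TPM in WT and 87.4, 81.1, 84.5 and 88.7 TPM in AKO. WT mice 2 and 5 were the lowest and the highest of all 8, with the AKO mice between them. Its log2 difference was -0.03 (SE 0.13, interval -0.32 to 0.26, FDR = 0.967).

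Psmb8, Psmb9 and Psmb10 replace the constitutive subunits encoded by Psmb5, Psmb6 and Psmb7. The inducible transcript as a percent of each pair shows the balance within a mouse and does not depend on the scaling of the library. Psmb8 made up 36.7%, 34.5%, 35.6% and 35.0% of Psmb8 plus Psmb5 in WT and 36.5%, 36.9%, 37.2% and 32.5% in AKO. AKO mouse 11 was the lowest, and the other 7 mice lay between 34.5% and 37.2%. Psmb9 made up 10.2%, 7.92%, 11.6% and 8.11% of Psmb9 plus Psmb6 in WT and 9.31%, 9.46%, 8.28% and 9.40% in AKO. It thus held the smallest share of the 3 in each mouse, and WT mice spanned a wider range than AKO mice. Psmb10 made up 28.7%, 32.7%, 30.8% and 33.3% of Psmb10 plus Psmb7 in WT and 31.8%, 29.5%, 31.3% and 30.7% in AKO. The differences in percentage points were 0.33 for Psmb8, -0.33 for Psmb9 and -0.59 for Psmb10. Exact permutation tests, two-sided and over all 70 arrangements of 4 and 4 mice, gave p = 0.886, 0.743 and 0.600, and 0.886 for each after adjustment over the 3 pairs. The smallest p this design allows is 0.0286.

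**Figure D2:**
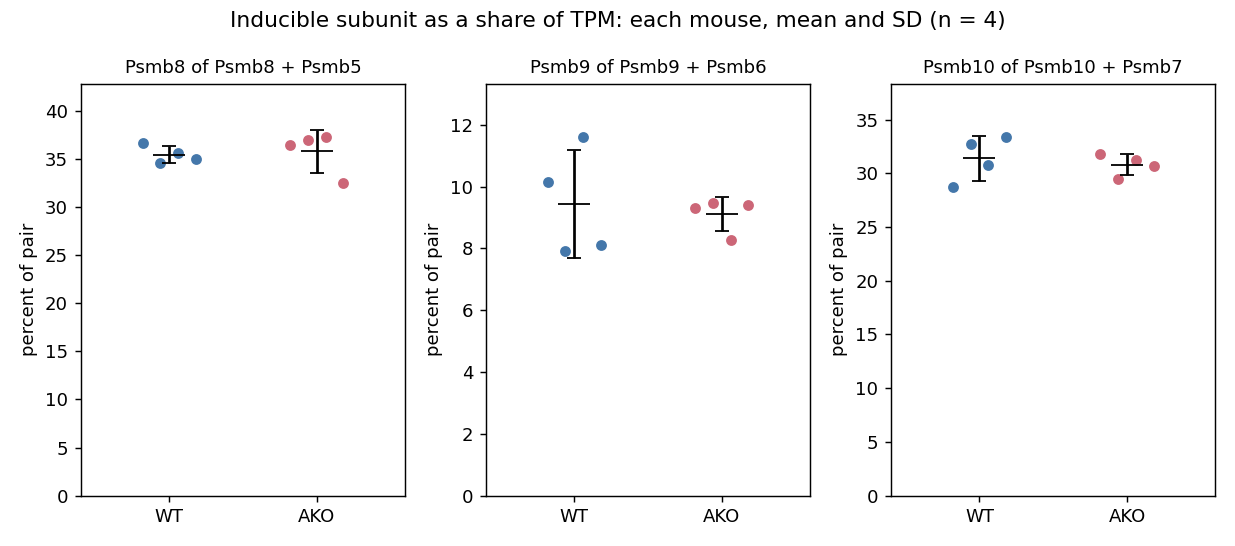
Inducible subunit as a percent of the TPM of itself plus its constitutive counterpart (vertical axes from 0) for the 3 pairs, with 1 point per mouse, the mean as a line and the SD as a bar (n = 4). Shares near 36% for Psmb8, 9% for Psmb9 and 31% for Psmb10 are seen in both genotypes.

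Nlrc5, the class I transactivator, was the least abundant of the 10. It had 8.51, 10.2, 12.1 and 9.88 TPM in WT and 10.1, 11.5, 10.9 and 11.5 TPM in AKO. WT mice 4 and 2 were the highest and the lowest of all 8, so the AKO mice lay inside the WT range. The means were 10.2 ± 1.49 and 11.005 ± 0.675 TPM, a log2 difference of 0.11 (SE 0.11, interval -0.14 to 0.36, FDR = 0.859). By mean TPM over the 8 mice the order was B2m, H2-K1, H2-D1, Tapbp, Psmb8, Psmb10, Tap2, Psmb9, Tap1 and Nlrc5. Neighbours whose ranges overlapped were H2-K1 with H2-D1, Psmb8 with Psmb10, and Psmb9 with Tap1. The range of Nlrc5 overlapped none of the others.

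Counted together, 7 of the 10 genes had log2 differences above 0 and 3 below, with a median of 0.10. Over all genes tested 53.8% were above 0, with a median of 0.02. In limma 0 of the 10 were called, where 0.0282% of all genes were (3 above and 1 below of 14172). At an unadjusted p below 0.05 there were 0 of the 10, against 4.75% of all genes, and the groups overlapped for each of the 10, where 2.44% of all genes had groups that did not overlap. Expressed as fold, the upper bounds of the intervals were 1.31 for H2-K1, 1.38 for H2-D1, 1.25 for B2m, 1.29 for Tap1 and Nlrc5, 1.23 for Psmb8, 1.21 for Psmb9, 1.20 for Psmb10, 1.11 for Tap2 and 1.06 for Tapbp. The lower bounds ran from 0.80 for Psmb10 to 0.98 for Psmb9. These bounds are for the difference between the group means of 4 and 4 mice, taken for each gene alone. Their width reflects the spread between these animals, but they do not give the range of single mice. A difference outside them is not excluded.

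**Figure D3:**
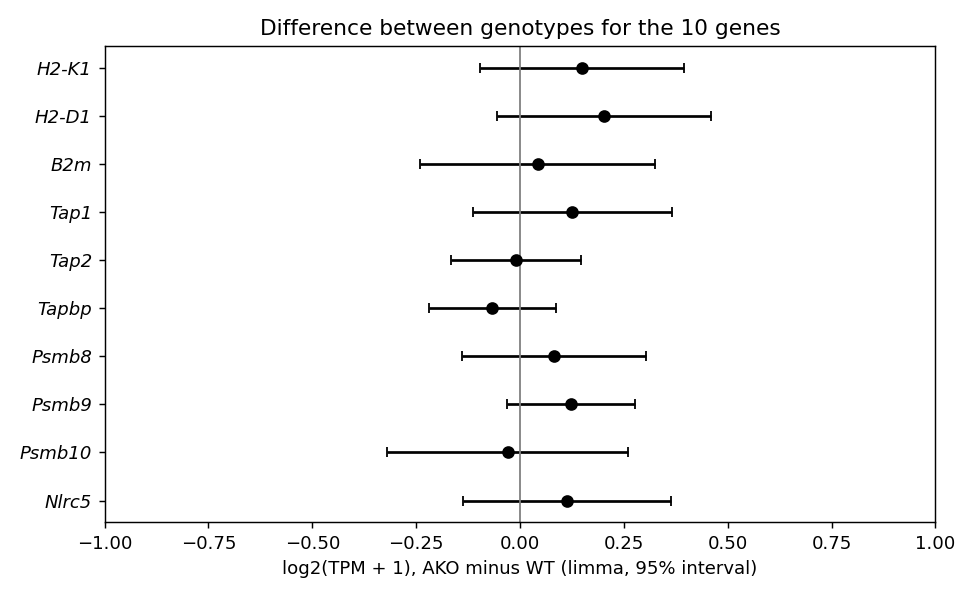
Difference between genotypes for each of the 10 genes, in log2(TPM + 1), WT subtracted from AKO (horizontal axis), with the 95% interval from limma as bars. Every interval includes 0, and the largest difference is 0.20 for H2-D1.

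The 10 genes did not rise and fall together from mouse to mouse. Of the 45 pairs, 24 had a positive and 21 a negative Pearson correlation of log2(TPM + 1) over the 8 mice, with a median of 0.12, and 3 pairs were above 0.7 and 3 below -0.7. These values describe 8 libraries. H2-K1 went with Psmb8 (r = 0.80) and Tap2 with Psmb10 (r = 0.81), while B2m went against Psmb10 (r = -0.88) and Tap2 (r = -0.82). Tap1 and Psmb9, which share the stretch between their starts, had r = 0.59. These 5 pairs were chosen after their values were seen. Against Nlrc5 the 9 other genes had Pearson r from -0.49 (Tapbp) to 0.51 (Tap1) and Spearman rho from -0.64 (Tapbp) to 0.36 (Tap1). The smallest exact permutation p was 0.195 for r and 0.0962 for rho, and 0.843 and 0.866 after adjustment over the 9 relations. After leaving out WT mice 2 and 4, the pair farthest from the median of Nlrc5, 4 of the 9 changed sign and B2m reached r = 0.93 (exact permutation p = 0.00556, and 0.05 adjusted). Within groups r ran from -0.57 for H2-D1 to 0.40 for Tap1. None of the 9 relations passed an adjusted p of 0.05, either pooled or within groups. The genes outside the set whose pattern over the 8 mice was most like the mean of the 10 were Parvg (r = 0.93), Lpar3, Entpd2, Tyw3, Ubqln2, Rgl2, Socs7 and Gtf2ird2 (r = 0.89). They are given as a description from a search over all genes tested.

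The transcript rows of the heavy chains gave a finer view. The tables do not say which transcript a row stands for, so rows are numbered by their order under a gene. The 10 genes have 77 rows, of which 42 reached 1 TPM in at least 4 mice. In limma over 33323 rows 0 of the 42 were called, where 0.021% of all rows were. At an unadjusted p below 0.05 there were 9 of the 42 (5.56% of all rows), all higher in AKO (3.22% of all rows in that direction), 7 of them from H2-K1 and 2 from H2-D1. Groups did not overlap for 5 of the 42, each with AKO above (1.59% of all rows), 4 from H2-K1 and 1 from H2-D1. Rows of 1 gene share reads and are not separate observations. More rows were above 0 in each AKO library than in each WT library over the whole table, and the part of this in the row values was not tested.

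The rows described singly were picked with their values known. Row 4 of H2-K1 had 0.92, 1.33, 1.35 and 0.95 TPM in WT and 3.15, 3.11, 2.65 and 2.38 TPM in AKO. Each AKO mouse was above each WT mouse, at a low level. Its log2 difference was 0.84 (SE 0.16, FDR = 0.488). Row 14 had 16.5, 16.2, 16.6 and 16.1 TPM in WT and 22.4, 24.3, 19.0 and 19.9 TPM in AKO, and row 16 had 24.6, 23.8, 23.04 and 25.0 TPM against 29.65, 29.2, 29.6 and 28.5 TPM. Both separated the genotypes and neither was called (log2 differences 0.36 and 0.27, FDR = 0.796 for both). The groups overlapped in the 3 largest rows, 1, 5 and 15. Row 1 held 61.7% of H2-K1 and had 1062 to 1291 TPM in WT and 1283 to 1524 TPM in AKO (log2 difference 0.17, FDR = 0.841). Row 5, 1 of the 9 rows with an unadjusted p below 0.05, had 149.5 to 199.6 TPM in WT and 198.6 to 245.0 TPM in AKO (log2 difference 0.29, FDR = 0.838). Row 15 had 417.0 to 531.1 and 373.1 to 575.0 TPM (log2 difference -0.03, FDR = 0.982). Apart from these 3, the 13 other rows of H2-K1 summed to 125.7, 118.3, 120.6 and 128.0 TPM in WT and 156.9, 163.3, 157.8 and 149.7 TPM in AKO. The means of these small rows differ by 33.8 TPM, and those of the sum of rows 1, 5 and 15 by 183.4 TPM, so most of the difference in the mean total of the gene lies in the large rows, where the groups overlap. This split was made after the values were seen and was not tested. In H2-D1, row 1 had 140.6, 139.2, 113.3 and 134.0 TPM in WT and 165.2, 148.7, 173.6 and 158.2 TPM in AKO (log2 difference 0.29, FDR = 0.837). Row 4, which held 51.6% of H2-D1 and is also among the 9, had 807.8 to 1087 TPM in WT and 1045 to 1220.5 TPM in AKO, with overlap (log2 difference 0.27, FDR = 0.838). None of the tested rows of the other 8 genes separated the groups. Nlrc5 was spread over 11 rows, the largest with 16.9% of the gene, and 4 of them were tested.

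**Figure D4:**
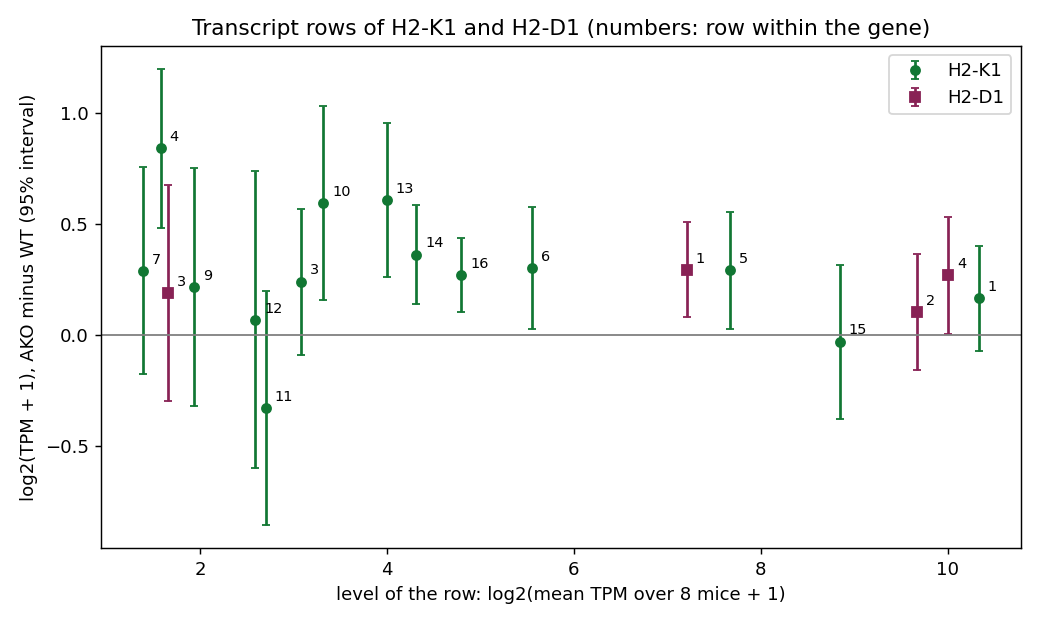
Transcript rows of H2-K1 and H2-D1 that reached the level for testing, with the level of each row (horizontal axis, log2 of the mean TPM over 8 mice plus 1) against its genotype difference in log2(TPM + 1), WT subtracted from AKO, and 95% intervals from limma as bars. Rows 4, 10 and 13 of H2-K1 lie highest. Of the large rows, 1 and 5 of H2-K1 and 4 of H2-D1 lie at 0.17, 0.29 and 0.27, and row 15 of H2-K1 at -0.03.

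Other class I heavy chains had the smallest p among the related genes. Of 16 nonclassical and class I-like genes listed, 12 were tested, 8 with values above 0 and 4 below, a median log2 difference of 0.14 (0.02 over all genes), and 0 called. At an unadjusted p below 0.05 there were 5, all higher in AKO, against 2.58% of all genes in that direction. H2-T23, which encodes Qa-1, the ligand of the receptor NKG2A, had 136.0, 125.7, 104.5 and 102.5 TPM in WT and 159.2, 164.3, 168.3 and 129.1 TPM in AKO. AKO mouse 11 lay below WT mouse 2, and the other AKO mice were above all WT mice (log2 difference 0.41, FDR = 0.831). H2-Q6 had 40.9, 60.05, 43.8 and 40.7 TPM in WT and 66.1, 54.3, 67.1 and 57.9 TPM in AKO (log2 difference 0.41, FDR = 0.831). H2-Q7, a Qa-2 heavy chain gene, had 54.5, 62.7, 48.3 and 47.0 TPM in WT and 68.7, 58.5, 79.7 and 65.1 TPM in AKO (log2 difference 0.35, FDR = 0.831). For H2-Q6 and H2-Q7 WT mouse 3 was the highest WT mouse, and it lay among the AKO mice. H2-M2, at 1.51 ± 0.593 TPM in WT and 3.06 ± 0.761 TPM in AKO, was low in every mouse (log2 difference 0.70, FDR = 0.831). Of the 50-base stretches, 28.8% of H2-T23, 32.0% of H2-Q6 and 34.9% of H2-Q7 occurred in another gene, so the single values of these 3 are uncertain. For H2-Q6 this was most often H2-Q7 and the reverse, so these 2 are not separate observations among the 5. H2-D1 shared stretches most often with H2-Q1, H2-Q7 and H2-Q6, and H2-K1 with H2-D1, H2-Q1 and H2-T23. The values of H2-K1 and H2-D1 are thus not separate from those of these genes. Of the stretches of H2-M2, 1.67% occurred in another gene.

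**Figure D5:**
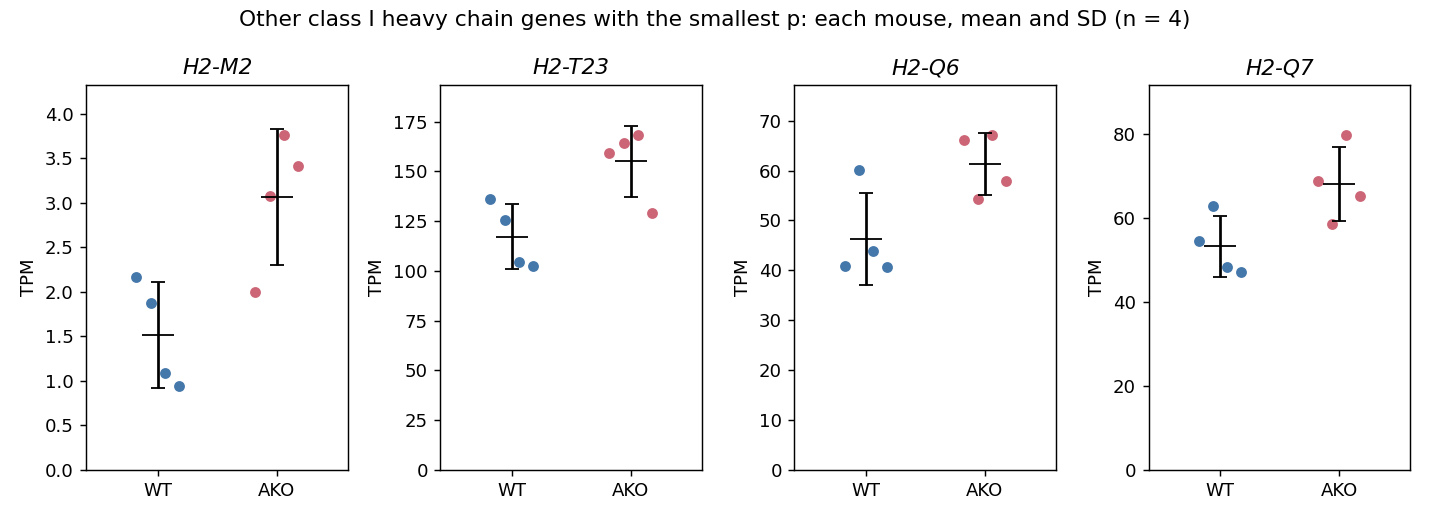
TPM of the class I heavy chain genes H2-M2, H2-T23, H2-Q6 and H2-Q7 (vertical axes from 0, a scale of its own for each gene), with 1 point per mouse, the mean as a line and the SD as a bar (n = 4). AKO means are higher in all 4 panels, the groups overlap in each, and none was called.

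Limma called 0 genes of the rest of the pathway, where 0.0282% of all genes were called. Of 9 other trimming and loading genes, 6 were above 0 and 3 below (median 0.02). The chaperone genes Hspa5 and Calr had 366.0 ± 86.4 and 470.3 ± 115.2 TPM in WT and 411.4 ± 54.1 and 511.3 ± 50.8 TPM in AKO, the disulfide isomerase gene Pdia3 236.9 ± 49.2 and 252.0 ± 28.9, and the tapasin-related gene Tapbpl 18.5 ± 2.63 and 17.1 ± 1.21. Of 14 constitutive core subunits, 5 were above 0 and 9 below (median -0.02). Psma3, a core alpha subunit, was the 1 gene in the loading, core and activator lists (9, 14 and 9 genes) whose groups did not overlap (2.44% of all genes), at 115.7 ± 5.78 TPM in WT and 107.8 ± 1.59 TPM in AKO (FDR = 0.831). Its neighbours in p were Psmb6 (248.3 ± 36.8 and 277.5 ± 22.05 TPM), Psma1 (205.1 ± 14.6 and 219.6 ± 17.8) and Psma4 (176.1 ± 21.5 and 161.7 ± 10.7). Of 9 activator and assembly genes, 2 were above 0 and 7 below (median -0.06), among them Psme1, a subunit of the interferon-inducible activator PA28, at 143.9 ± 16.7 and 134.0 ± 7.58 TPM. The assembly chaperone genes Psmg1, Psmg2 and Psmg3 had 27.8 ± 3.26, 20.6 ± 1.99 and 17.1 ± 0.701 TPM in WT and 26.2 ± 2.70, 19.0 ± 2.03 and 18.9 ± 2.32 TPM in AKO.

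Of the listed genes upstream and downstream of the class I set limma called 0, where it called 0.0282% of all genes. Of 16 transcription factors that act on class I promoters, 14 were above 0 and 2 below (median 0.11, and 0 with an unadjusted p below 0.05). Nfya, a subunit of the factor that binds CCAAT, had 23.1, 33.5, 16.7 and 21.6 TPM in WT and 37.1, 29.7, 39.5 and 23.2 TPM in AKO, with overlap (log2 difference 0.45, FDR = 0.831). Ciita, the class II transactivator, had 8.10 ± 0.590 and 9.62 ± 1.55 TPM, Irf2 27.1 ± 4.90 and 32.4 ± 5.07, and Nfkb1 44.4 ± 3.19 and 48.8 ± 5.17. Of 10 genes for interferon gamma, interferon receptors and their signalling, 8 were tested, 6 above 0 and 2 below (median 0.10). Ifnar1 had 33.7 ± 4.54 TPM in WT and 38.7 ± 4.88 in AKO, Ifngr2 24.5 ± 6.21 and 28.65 ± 5.42, Tyk2 14.9 ± 1.28 and 16.8 ± 2.28, and the feedback inhibitor gene Socs3 5.35 ± 1.74 and 6.67 ± 0.933. Ifng itself was under 1 TPM in all 8 mice.

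Genes that interferon gamma is known to induce were mixed in sign. Of 16 listed, 15 were tested, 11 above 0 and 4 below (median 0.13). An unadjusted p below 0.05 was found for 1 of the 15, against 4.75% of all genes. That gene was the chemokine gene Cxcl10, at 7.21, 6.31, 5.61 and 7.06 TPM in WT and 4.45, 3.85, 5.66 and 6.05 TPM in AKO, lower on average in AKO with overlap (log2 difference -0.34, FDR = 0.831). Cd274, which encodes PD-L1, had 9.21 ± 1.90 and 11.7 ± 1.24 TPM, the GTPase gene Irgm1 18.1 ± 0.737 and 20.2 ± 1.37, and Gbp4 7.68 ± 3.01 and 9.43 ± 0.745. Among 10 listed genes of class I receptors and of relatives of such receptors, 6 were tested, 5 above 0 and 1 below (median 0.21). Pirb, an inhibitory receptor of myeloid cells, had 53.3, 93.3, 23.1 and 48.4 TPM in WT and 96.8, 67.1, 111.9 and 56.6 TPM in AKO (FDR = 0.831). Lilrb4a, listed as a relative of Pirb and not as a class I receptor, had 42.4 ± 20.3 and 59.2 ± 21.4 TPM. Klrd1 had 2.46 ± 0.911 and 2.85 ± 0.859 TPM, and Klrc1, which encodes NKG2A, 0.993 ± 0.278 and 1.27 ± 0.603. Cd8a, the co-receptor of the T cells that read class I molecules, had 0.42, 0.39, 0.86 and 0.47 TPM in WT and 0.36, 2.36, 0.77 and 0.57 TPM in AKO, too low for testing and highest in AKO mouse 8.

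Marker genes of the cells in the pad are given as summed levels, beside which the class I values stand. For the counts that follow, 53.8% of all genes tested had log2 differences above 0 and 0.0282% were called. Of all genes, 4.75% had an unadjusted p below 0.05, and 2.58% had it with AKO higher. The 12 macrophage markers summed to 2276 to 5413 TPM in WT and 3720.2 to 6602 TPM in AKO, with 12 of 12 log2 differences above 0 (median 0.52), 0 with an unadjusted p below 0.05 and 0 called. Those of lipid-associated macrophages summed to 5321 to 10358 and 7821 to 11976 TPM, with 9 of 10 above 0 (median 1.17). An unadjusted p below 0.05 was found for 3, all higher in AKO, and 0 were called. Lpl, the 1 below 0, made up a large part of these sums, with 3612 to 4685 TPM in WT and 3647 to 4217 TPM in AKO. Fat cell markers summed to 11243 to 21100 TPM in WT and 10938 to 15899 TPM in AKO, with 10 of 10 below 0 (median -0.26), 1 with an unadjusted p below 0.05 and 0 called. The 3 tested B cell markers were all above 0 (median 0.59), 2 of them with an unadjusted p below 0.05, and the B cell list summed to 8.45 to 38.6 TPM in WT and 33.6 to 79.6 TPM in AKO. Of the other lists, all 8 tested T and NK cell markers, all 8 fibroblast markers, 4 of 5 dendritic cell markers, 3 of 8 endothelial and 2 of 6 mesothelial markers were above 0. An unadjusted p below 0.05 was found for 1 fibroblast and 1 dendritic cell marker, both higher in AKO, and limma called 0 of the markers. The summed levels overlapped between the genotypes in each of these lists. The 7 markers of the epididymal epithelium summed to 0.23 to 7.73 TPM in WT and 0.30 to 1.09 TPM in AKO. Of these, Lcn8 and Spint4 were listed at 0 in all 8 libraries, while Crisp1 had 7.57 TPM in WT mouse 4. The part of these differences in cell markers in the values of the class I genes was not tested.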

How the data were processed

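Per the submitters' processing notes, HISAT2, DESeq2 and the mouse build mm9 were used, with no role or version stated, while for the program and annotation behind the TPM the sources used here give no name. The deposited tables, 1 per library with 152298 rows, hold TPM that sum to 1000000 within rounding. Depth is unknown, so no counting interval is given. The 401 rows that name no gene, with 0.605% to 0.943% of TPM, were not used. Of 55487 identifiers 55141 had a symbol. GENCODE M21 and RefSeq (GRCm38.p6) are on another build than the files and served for names, transcript sequences and promoters only.

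Rows were summed per gene. Genes that reached 1 TPM in 4 or more mice were fitted with limma 3.58.1 (R 4.3.3) on log2(TPM + 1) with a mean-variance trend, all 8 mice and no covariate, and adjusted by the Benjamini-Hochberg method over all genes, or over all rows for transcript rows. The fit was tested on simulated data. Shares and correlations used exact permutation tests (Python 3.11.15, scipy 1.17.1). No 2 libraries were identical. The series' design text describes separate mice.

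The 10 genes, the lists and the rules were chosen with earlier results of these data known. All 10 are named, and of each other list at most 4 tested members with the smallest p. The 8 genes most like the mean of the 10 are named by Pearson r, leaving out predicted genes. Alternatives were a pseudocount of 0.1, no filter, median-ratio scaling, the row with the highest mean per gene, sample quality weights and leaving out each mouse.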

Additional observations from a re-analysis of the deposited data

Results flagged for a closer look

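Among 90 groups of 4 values checked (the 10 genes, the named genes of the related lists and the 3 subunit shares, in each genotype), 5 had 1 mouse far from the other 3, its gap to the nearest being a larger part of the range than Dixon's critical value at the 95% level. Chance gives about 1 in 20. Tap2 was 49.35 TPM in WT mouse 5, against 43.1 to 43.8 TPM in the other WT mice. H2-Q6 was 60.05 TPM in WT mouse 3, against 40.7 to 43.8 TPM. Tyk2, a kinase of interferon receptors, was 16.8 TPM in WT mouse 3, against 14.0 to 14.4 TPM. The Psmb8 share of Psmb8 plus Psmb5 was 32.5% in AKO mouse 11, against 36.5% to 37.2% in the other AKO mice. The Psmb9 share of Psmb9 plus Psmb6 was 8.28% in AKO mouse 9, against 9.31% to 9.46%.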

How the results depend on the processing

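No paired analysis was possible because the groups share only the number 3, on different animals. In each of the 13 alternatives 0 of the 10 genes were called, and the lowest FDR of any of them was 0.482 (H2-D1). Leaving out 1 mouse at a time, the log2 difference ranged from 0.09 to 0.19 for H2-K1, from 0.15 to 0.28 for H2-D1, from 0.07 to 0.18 for Tap1, from 0.02 to 0.13 for Psmb8, from 0.10 to 0.15 for Psmb9, from 0.04 to 0.19 for Nlrc5 and from -0.10 to -0.03 for Tapbp. It crossed 0 for B2m (-0.026 to 0.10), Tap2 (-0.028 to 0.035) and Psmb10 (-0.14 to 0.075), in each case without WT mouse 5. With the highest row per gene Nlrc5 turned to -0.32, that row, row 3, holding 16.9% of the gene. Row 3 was listed at 0 in WT mouse 4 and AKO mice 3 and 11, where row 2 had 3.65, 3.41 and 3.35 TPM. Row 2 was listed at 0 in the other mice. Over all genes, calls above WT were 5 with a pseudocount of 0.1 and ranged from 1 to 3 without 1 mouse, and calls below from 0 to 2. Among transcript rows, calls above WT were 2 with a pseudocount of 0.1 and 0 with no filter (4045 of 99191 at an unadjusted p below 0.05), and ranged from 0 to 2 without 1 mouse. Calls below were 0 with either and ranged from 0 to 1. No row of the 10 genes was called in any of these.

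The share differences changed sign at small values, with no adjusted p below 0.05. Without 1 mouse they ranged from -0.16 to 1.43 percentage points for Psmb8, from -0.84 to 0.38 for Psmb9 and from -1.49 to 0.063 for Psmb10, and with the highest row per gene the differences were 0.042 for Psmb8, 0.14 for Psmb9 and -1.72 for Psmb10. Correlations with Nlrc5 also turned. With the highest row per gene they used row 3 of Nlrc5, listed at 0 in WT mouse 4 and AKO mice 3 and 11. With the highest row per gene r was 0.35 for H2-K1, 0.20 for H2-D1, -0.057 for B2m, 0.23 for Tap2, 0.38 for Tapbp, 0.48 for Psmb8 and -0.070 for Psmb9. Without WT mice 2 and 4 it was 0.26 for H2-K1, 0.62 for H2-D1, -0.15 for Tap1 and -0.67 for Psmb10. The causes of these turns were not tested.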

Other observations

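Cd1d1, which presents lipids to NKT cells and is a class I-like gene, was chosen after its values were seen. It had 305.4, 250.5, 553.0 and 391.5 TPM in WT and 274.5, 334.0, 222.3 and 334.1 TPM in AKO, a log2 difference of -0.32 (SE 0.24, FDR = 0.831 by limma). WT mouse 4 was the highest, and the groups overlapped. Crisp1, a gene of the epididymal epithelium, had 7.57 TPM in WT mouse 4 and at most 0.51 TPM in the other 7 mice, and Lcn5, another such gene, had 3.98 TPM in WT mouse 3 and was listed at 0 in the other 7.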
